A study of Homo sapiens with 6 samples.

Results

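The genes described here make cholesterol and fatty acids or control that synthesis. They were chosen by name, as 32 gene symbols matched in the count table of 30270 genes, and all 32 were found. The list was drawn up with earlier results of these data known. By role they divide into 7 genes of the mevalonate pathway, 11 of the later squalene and sterol ring steps, 5 that encode the SREBP factors and the proteins that retain them, 2 of sterol transport and 7 of fatty acid synthesis. All 32 passed the filter on low counts (a largest count above 12), as did 23952 genes in all.

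Total RNA was sequenced after ribosomal RNA depletion from the human embryonic kidney line HEK 293T, which carries the SV40 large T antigen. By their labels, 3 libraries were wild type (WT) and 3 came from cells with a TENT3A/B double knockout (ΔTUT4/7 in the study). TENT3A and TENT3B are other names for TUT4 and TUT7, terminal uridylyltransferases, enzymes that extend the 3′ ends of RNA with uridines. Neither group was treated, and both grew in DMEM with serum and antibiotics. The study's methods state that HEK 293T cells came from the American Type Culture Collection. The ΔTUT4/7 line was made earlier and obtained from another laboratory. Whether the WT cells are the parent of the ΔTUT4/7 line, and whether that line is 1 clone, was not given in the sources used here. The libraries of a group were labelled as biological replicates of that line, so differences between the lines other than the deletion cannot be told apart from it, and p-values measure only the spread between libraries.

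Library totals ran from 18757228 to 33148937 estimated counts. The targeted genes did not both follow the label: TUT7 fell from 62.6 ± 2.17 (SD, n = 3) to 26.3 ± 1.04 CPM (counts scaled to a common library total), while TUT4 rose from 211 ± 5.08 to 906 ± 21.4 CPM. Counts over a whole gene do not separate intact from disrupted transcripts, and every direction below is that of the libraries labelled ΔTUT4/7 against WT. All 7 marker genes listed for the 293 line were tested. Their summed level was 1786 to 1991 CPM in WT and 1397 to 1411 CPM in ΔTUT4/7. This fall of the sum rested on NEFM, a neurofilament gene that went from 969 ± 123 CPM to 0, 0 and 0.0511 CPM. Without NEFM the other 6 summed to 882 to 909 CPM in WT and 1397 to 1411 CPM in ΔTUT4/7, with VIM 2.52-fold and KRT18 1.45-fold higher and KRT8, PAX2, LHX1 and NEFL lower. Of 10 markers of blood, endothelial, fibroblast and liver cells, 4 were listed in the count table and their sum was 0.305 to 0.691 CPM in WT and 1.48 to 2.37 CPM in ΔTUT4/7. Most of this rise was that of HBA1, a red cell marker, from 0.108 ± 0.0982 to 1.31 ± 0.217 CPM. PECAM1, VWF and ALB had mean counts of 2.5, 5 and 3 and were not tested. The part of these marker differences in the results below was not tested.

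Cells build cholesterol from acetyl-CoA through mevalonate and isoprenoid units to squalene, which is closed into a ring and trimmed to cholesterol. Fatty acid synthesis starts from the same acetyl-CoA. The transcription factors SREBP-2 (from SREBF2) and SREBP-1 (from SREBF1) switch on both branches. They are held in the endoplasmic reticulum by SCAP and the INSIG proteins while sterols are plentiful, and travel to the Golgi for cleavage when sterols fall.

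Most of these genes had higher counts in ΔTUT4/7. In edgeR's quasi-likelihood test at a false discovery rate (FDR) under 0.05, 23 of the 32 rose, 6 fell and 3 were not called. Across all genes tested, 57.7% were called, with 28.6% higher and 29.0% lower. Among the 13496 tested genes whose mean count reached 100, a closer background for genes of this abundance, 73.7% were called, with 42.5% higher and 31.2% lower. The corresponding shares of the 32 genes were 90.6% called, 71.9% higher and 18.8% lower. Because the genes were chosen with earlier results of these data known, their contrast with the background is a description and not a test. The median log2 fold change of the 32 was 0.45, against -0.02 for all genes tested and 0.08 for those whose mean count reached 100. The 3 libraries of each group did not overlap for 30 of the 32 genes, which was the case for 62.7% of all genes tested and 76.6% of the more abundant ones. In bulk RNA, more RNA per cell and more cells that express a gene cannot be told apart.

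Changes of at least 2-fold went upwards in every case among these genes. HMGCS1, IDI1, NSDHL, DHCR7, INSIG1, FASN and SCD passed that size, 7 of 32 genes. The background for a called change of 2-fold or more was 18.3% of all genes tested, made up of 5.90% higher and 12.4% lower, and for the more abundant genes 12.1%, made up of 5.36% higher and 6.75% lower. The largest falls were those of FADS2, STARD4, INSIG2, PMVK and SREBF2, each less than 2-fold.

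**Figure D1:**
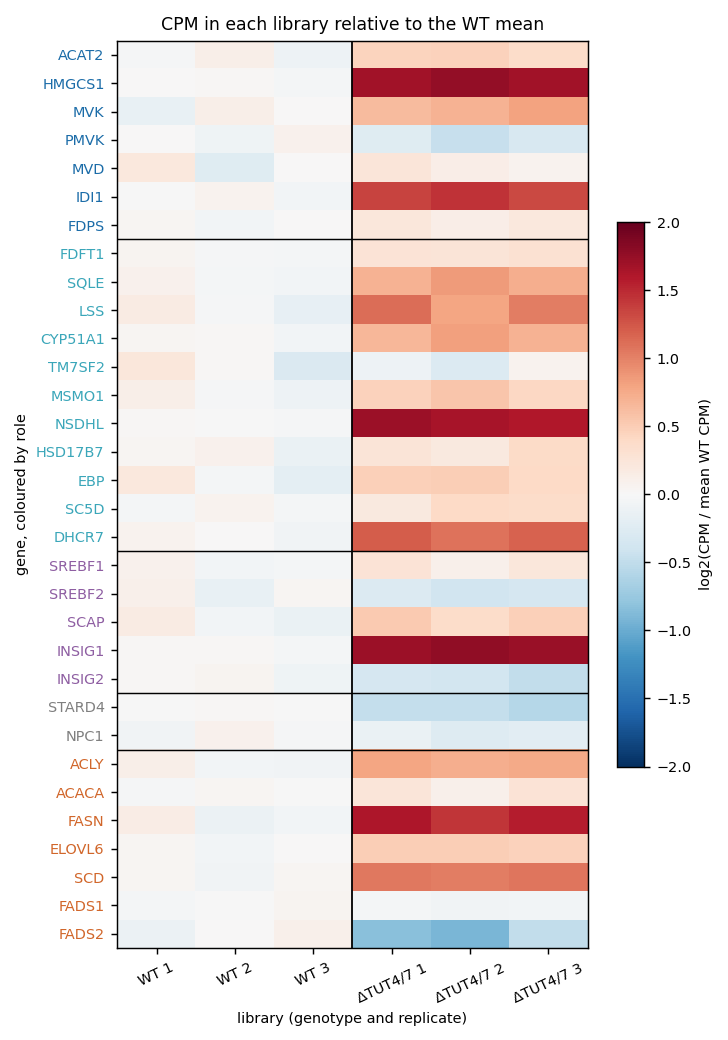
Each row is 1 of the 32 genes, grouped by role, and each column 1 of the 6 libraries. Colour gives log2 of the CPM over the mean WT CPM of that gene, red for higher and blue for lower; the 3 ΔTUT4/7 columns are mostly red, with blue rows for FADS2, STARD4, INSIG2, PMVK, SREBF2 and NPC1.

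Promoter sequences from RefSeq (GRCh38.p14, from 250 bases before to 50 after each annotated start) were matched by symbol for 28 of the 32 genes, and not for ACAT2, FDFT1, SQLE and FASN. They were searched on both strands for 3 motifs: the classical sterol regulatory element bound by SREBPs (TCACNCCAC, with N for any base), the box bound by NF-Y (CCAAT) and the GC box bound by Sp1 (GGGCGG). NF-Y and Sp1 are general factors known to bind next to SREBPs at sterol-regulated promoters. The following stretches show what these windows look like for 3 genes with the largest rises and 2 that fell, each upstream of the RefSeq start and holding no base of the gene as placed in the deposited table. Capitals mark matches to the sterol regulatory element and the NF-Y box, in either orientation, so that ATTGG is CCAAT read on the other strand and CCAATTGG in NSDHL holds overlapping matches on both strands.
HMGCS1, chr5:43313513-43313587, minus strand: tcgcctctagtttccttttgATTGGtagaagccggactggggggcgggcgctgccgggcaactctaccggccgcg
INSIG1, chr7:155297703-155297775, plus strand: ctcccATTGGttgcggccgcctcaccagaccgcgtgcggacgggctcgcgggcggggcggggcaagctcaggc
NSDHL, chrX:152830888-152830966, plus strand: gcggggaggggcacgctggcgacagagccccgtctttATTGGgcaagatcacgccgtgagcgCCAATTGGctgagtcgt
SREBF2, chr22:41832930-41833029, plus strand: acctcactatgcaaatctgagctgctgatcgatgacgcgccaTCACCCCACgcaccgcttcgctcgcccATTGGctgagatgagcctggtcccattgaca
STARD4, chr5:111512611-111512710, minus strand: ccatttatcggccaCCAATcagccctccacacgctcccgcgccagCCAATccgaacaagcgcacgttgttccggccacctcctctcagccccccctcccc

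The sterol regulatory element letters matched in 1 of the 28 windows, that of SREBF2, where they lie 133 bases before the RefSeq start. They matched the windows of 1.39% of the 27305 genes with an entry. An NF-Y box was found for 20 of 28 (71.4%), against 39.7% of all genes with an entry and 44.2% of the 9709 whose mean count also reached 100. By direction, the box was present for 15 of the 19 genes that rose, 3 of the 6 that fell and 2 of the 3 not called. An Sp1 box was found for 27 of 28, against 48.3% of all genes and 77.9% of the more abundant ones. A match describes letters in these windows, and binding was not measured. Elements that differ from the searched letters or lie outside the windows would not be found.

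The mevalonate pathway genes carry carbon from acetoacetyl-CoA to farnesyl diphosphate. Of the 7, 5 rose, PMVK fell and MVD was not called, with a median log2 fold change of 0.43. Their summed level rose from 291 ± 4.55 to 552 ± 9.64 CPM (SD, n = 3), a ratio of 1.90. HMGCS1 and IDI1 were the members of at least 2-fold change.

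HMGCS1 makes HMG-CoA, the substrate of the pathway's rate-limiting reductase. It measured 65.9, 66.2 and 63.9 CPM in the WT libraries and 210, 220 and 209 CPM in those labelled ΔTUT4/7. The groups were far apart, with little spread within either, and the log2 fold change was 1.70 ± 0.05 (SE, adjusted p 2.62e-17 in edgeR). IDI1, which interconverts the isoprenoid units, measured 50.5, 53.5 and 48.8 CPM in WT and 130, 139 and 127 CPM in ΔTUT4/7. Every ΔTUT4/7 library was more than 2 times as high as the highest WT library, with a log2 fold change of 1.37 ± 0.05.

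MVK, the mevalonate kinase, was at 11.0, 13.3 and 12.3 CPM in WT and 18.9, 19.7 and 21.3 CPM in ΔTUT4/7. The groups did not overlap, at a log2 fold change of 0.70 ± 0.09. PMVK, the kinase of the next step, was at 17.1, 16.1 and 18.1 CPM in WT and 14.4, 12.5 and 13.7 CPM in ΔTUT4/7. This enzyme fell in all 3 libraries, by 0.33 ± 0.09 on the log2 scale (adjusted p 0.00425), so that consecutive kinases of the pathway changed in opposite directions. MVD, the decarboxylase that follows, ranged from 9.96 to 13.6 CPM in WT and from 12.4 to 14.0 CPM in ΔTUT4/7. These ranges overlapped, and its log2 fold change of 0.16 ± 0.11 did not pass the test (adjusted p 0.233).

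ACAT2, the cytosolic thiolase at the entry to the pathway, had a log2 fold change of 0.43 ± 0.06, from 39.7 ± 3.22 to 53.4 ± 1.94 CPM. FDPS, which makes farnesyl diphosphate, rose less, from 93.8 ± 3.14 to 107 ± 3.63 CPM (log2 fold change 0.20 ± 0.05). The FDPS call was lost with library size alone in place of TMM scaling (adjusted p 0.177) and in limma on log2(CPM + 1) (0.203). The authors' estimated counts share reads between similar genes, and the table held 6 FDPS pseudogenes and 1 of IDI1, so the values of these 2 enzymes are uncertain by that sharing.

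The later enzymes join farnesyl units into squalene, close the ring and convert lanosterol to cholesterol. Of these 11 genes 10 rose, none fell and TM7SF2 was not called, with a median log2 fold change of 0.48. Their sum went from 637 ± 29.4 to 989 ± 23.3 CPM, a ratio of 1.55. NSDHL and DHCR7 changed by at least 2-fold, and LSS by 1.98-fold.

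NSDHL, which removes the C4 methyl groups together with MSMO1 and HSD17B7, measured 14.9, 14.5 and 14.3 CPM in WT and 47.8, 45.7 and 43.9 CPM in ΔTUT4/7. It was the largest change of the 11, a log2 fold change of 1.66 ± 0.07. Its partners moved less. MSMO1 had a log2 fold change of 0.48 ± 0.06, from 41.9 ± 3.40 to 58.4 ± 2.97 CPM. HSD17B7 measured 13.5, 14.0 and 12.1 CPM in WT and 15.8, 15.2 and 17.2 CPM in ΔTUT4/7, with no overlap. Its log2 fold change was 0.28 ± 0.10 (adjusted p 0.0152), and the call was lost without WT replicate 3 (0.0890) or ΔTUT4/7 replicate 3 (0.0776), with library size alone (0.151) and in limma on log2(CPM + 1) (0.151). The table held 2 pseudogenes of HSD17B7, 3 of CYP51A1 and 1 of SCD.

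DHCR7, the reductase that turns 7-dehydrocholesterol into cholesterol, was at 31.4, 30.0 and 28.4 CPM in WT and 69.5, 63.3 and 67.6 CPM in ΔTUT4/7. Its log2 fold change was 1.16 ± 0.06. LSS, the cyclase that makes lanosterol, was at 31.4, 27.8 and 25.1 CPM in WT and 61.2, 48.5 and 56.9 CPM in ΔTUT4/7, with a log2 fold change of 1.00 ± 0.10. The lowest ΔTUT4/7 library for LSS was still 1.55 times the highest WT library. SQLE, the squalene epoxidase and a controlled step of the pathway, was at 155, 142 and 141 CPM in WT and 237, 262 and 241 CPM in ΔTUT4/7. CYP51A1, the lanosterol demethylase, went from 120 ± 4.11 to 198 ± 11.1 CPM. SQLE and CYP51A1 thus rose by similar amounts, with log2 fold changes of 0.76 ± 0.05 and 0.72 ± 0.05.

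The remaining steps changed by 1.37-fold (EBP) or less. FDFT1, the squalene synthase, rose from 90.0 ± 3.48 to 109 ± 1.72 CPM. EBP, the sterol isomerase, rose from 33.7 ± 4.85 to 46.3 ± 1.63 CPM, and SC5D, a desaturase, from 111 ± 4.47 to 138 ± 10.3 CPM. TM7SF2, a C14 sterol reductase whose reaction is also carried out by LBR, ranged from 7.40 to 10.5 CPM in WT and from 7.42 to 9.50 CPM in ΔTUT4/7. Its libraries overlapped, with a log2 fold change of -0.08 ± 0.13 (adjusted p 0.639). LBR itself measured 390 ± 13.7 and 386 ± 14.4 CPM and was not called (adjusted p 0.783).

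**Figure D2:**
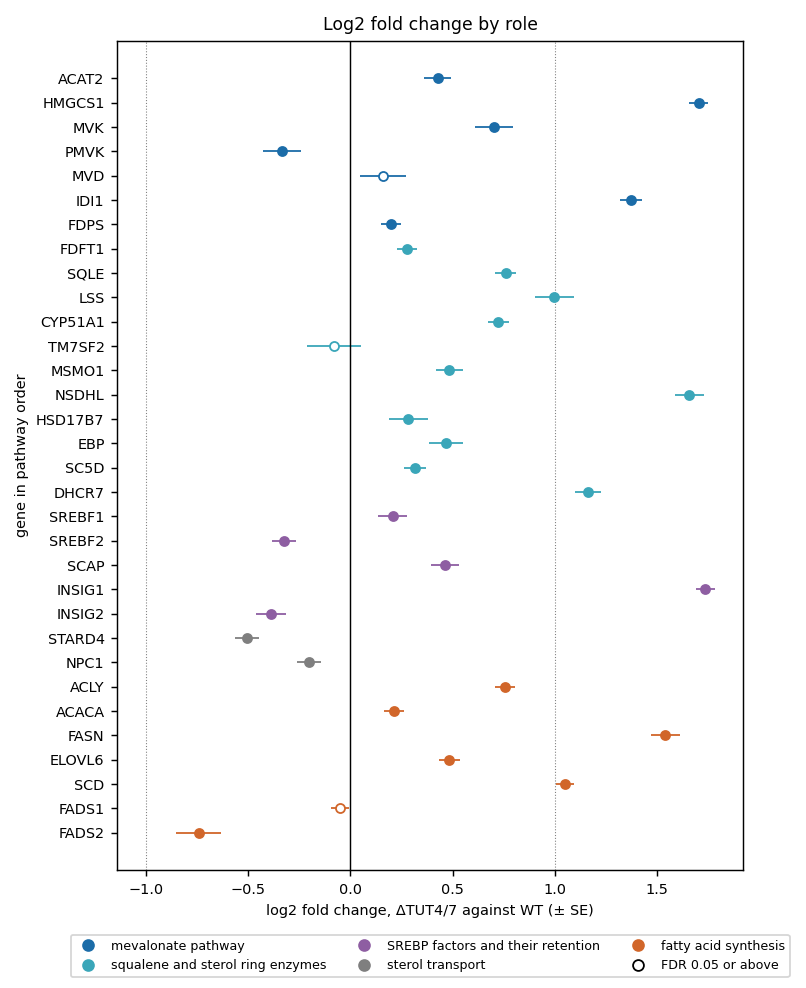
The log2 fold change of ΔTUT4/7 against WT is plotted on the horizontal axis with its standard error for each of the 32 genes in pathway order, coloured by role. Filled points passed an FDR of 0.05 and dotted lines mark 2-fold; 7 points lie past the upper line, none past the lower one, and MVD, TM7SF2 and FADS1 are open.

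Among the regulators, INSIG1 and INSIG2 changed in opposite directions. Both encode anchors that hold SCAP and the SREBPs in the endoplasmic reticulum, and INSIG1 is itself a known SREBP target. INSIG1 measured 58.6, 58.3 and 55.9 CPM in WT and 189, 196 and 190 CPM in ΔTUT4/7. This was the largest change of the 32 genes, with a log2 fold change of 1.74 ± 0.05 (adjusted p 2.26e-17). INSIG2 measured 30.2, 30.9 and 28.1 CPM in WT and 23.6, 23.1 and 21.2 CPM in ΔTUT4/7. It fell by 0.39 ± 0.07 on the log2 scale, with no overlap between the groups.

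The ratio of a gene pair within a library does not depend on scaling, so it was compared for 3 pairs. The log2 ratio of INSIG1 over INSIG2 counts was 0.96, 0.91 and 0.99 in WT and 3.00, 3.08 and 3.16 in ΔTUT4/7. The means were 0.95 ± 0.04 and 3.08 ± 0.08, a difference of 2.13. For SREBF1 over SREBF2 the means were -1.95 ± 0.09 and -1.43 ± 0.04, a difference of 0.52. For FADS1 over FADS2 they were 3.29 ± 0.06 and 3.97 ± 0.22, a difference of 0.69. In each pair all 3 libraries of a group lay on the same side of the other group. The exact permutation test (two-sided) gave p = 0.1 for each pair, also after adjustment over the 3 pairs, and 0.1 is the smallest p that 3 libraries against 3 allow.

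SREBF2, the factor gene of the sterol branch, measured 126, 107 and 122 CPM in WT and 98.3, 90.8 and 94.0 CPM in ΔTUT4/7. It fell by 0.32 ± 0.06 on the log2 scale (adjusted p 8.02e-05), while most sterol enzymes rose. SREBF1 measured 32.5, 29.3 and 29.7 CPM in WT and 36.9, 32.6 and 35.7 CPM in ΔTUT4/7. The groups were separated by a small gap, with a log2 fold change of 0.21 ± 0.07 (adjusted p 0.0153). The SREBF1 call was lost in 8 of 15 alternatives, with adjusted p from 0.0537 to 0.348, among them the fits without WT replicate 2 or 3 and without ΔTUT4/7 replicate 1 or 3. SCAP, the escort that carries SREBPs to the Golgi, rose from 63.3 ± 6.71 to 86.9 ± 4.90 CPM (log2 fold change 0.46 ± 0.07). Gene counts do not show SREBP cleavage or the amount of nuclear protein.

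Both sterol transport genes fell. STARD4, a soluble carrier of cholesterol between membranes, measured 50.8, 51.5 and 50.4 CPM in WT and 36.4, 36.8 and 34.2 CPM in ΔTUT4/7. All ΔTUT4/7 libraries were below all WT libraries, by 0.51 ± 0.06 on the log2 scale (log2 fold change -0.51). Its promoter stretch above holds a pair of NF-Y boxes, as did windows of genes that rose. NPC1, which exports cholesterol from lysosomes, measured 55.5, 61.8 and 56.9 CPM in WT and 52.8, 48.4 and 50.2 CPM in ΔTUT4/7. Its log2 fold change was -0.20 ± 0.06 (adjusted p 0.00652), and the call was lost with an offset for GC content and length (0.102).

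Fatty acid synthesis genes rose in 5 of 7 cases, with FADS2 lower and FADS1 not called, and a median log2 fold change of 0.48. Their summed level was 1853, 1713 and 1763 CPM in WT and 3392, 3183 and 3359 CPM in ΔTUT4/7, a ratio of 1.86. FASN and SCD were the genes of at least 2-fold change.

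FASN, the multifunctional fatty acid synthase, measured 315, 263 and 276 CPM in WT and 877, 763 and 843 CPM in ΔTUT4/7. Libraries spread more within each group than for HMGCS1 but stayed far apart between groups, with a log2 fold change of 1.54 ± 0.07 (adjusted p 8.03e-09). SCD, the stearoyl-CoA desaturase that makes monounsaturated fatty acids, measured 577, 539 and 577 CPM in WT and 1175, 1146 and 1189 CPM in ΔTUT4/7. Its log2 fold change was 1.05 ± 0.04, and with library size alone, in limma on log2(CPM + 1) and with a mean count of 50 or more only 6 of the 32 genes reached 2-fold. ACLY, which supplies cytosolic acetyl-CoA to both branches, measured 542, 484 and 480 CPM in WT and 869, 827 and 850 CPM in ΔTUT4/7, with a log2 fold change of 0.76 ± 0.05.

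ACACA, the carboxylase that commits acetyl-CoA to fatty acid synthesis, rose by much less than FASN. It measured 190, 198 and 191 CPM in WT and 229, 208 and 234 CPM in ΔTUT4/7, with a log2 fold change of 0.21 ± 0.05, and the call was lost with library size alone (adjusted p 0.107) and in limma on log2(CPM + 1) (0.120). ELOVL6, the elongase of saturated chains, went from 53.0 ± 1.80 to 74.2 ± 0.983 CPM (log2 fold change 0.48 ± 0.05).

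The desaturases of polyunsaturated fatty acids did not follow SCD. FADS2, the delta-6 desaturase, measured 15.4, 16.8 and 17.8 CPM in WT and 9.39, 8.81 and 11.9 CPM in ΔTUT4/7. It was the largest fall of the 32 genes, by 0.74 ± 0.11 on the log2 scale (log2 fold change -0.74, adjusted p 6.55e-06). FADS1, the delta-5 desaturase, measured 158, 161 and 168 CPM in WT and 158, 155 and 157 CPM in ΔTUT4/7. The gap between its groups was narrow and the log2 fold change of -0.05 ± 0.04 did not pass the test (adjusted p 0.335), although it was called lower with library size alone (0.00300), in limma on log2(CPM + 1) (0.00355) and with a mean count of 50 or more (0.0264). In the annotation FADS1 lies within FADS2 on the other strand, and whether reads were counted by strand was not given in the sources used here, so reads from these neighbours may not be told apart. FEN1 overlaps FADS2 on the same strand, where counting by strand would not by itself separate reads. FEN1 rose (0.40 ± 0.05), with a mean count of 3273 against 332 for FADS2.

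**Figure D3:**
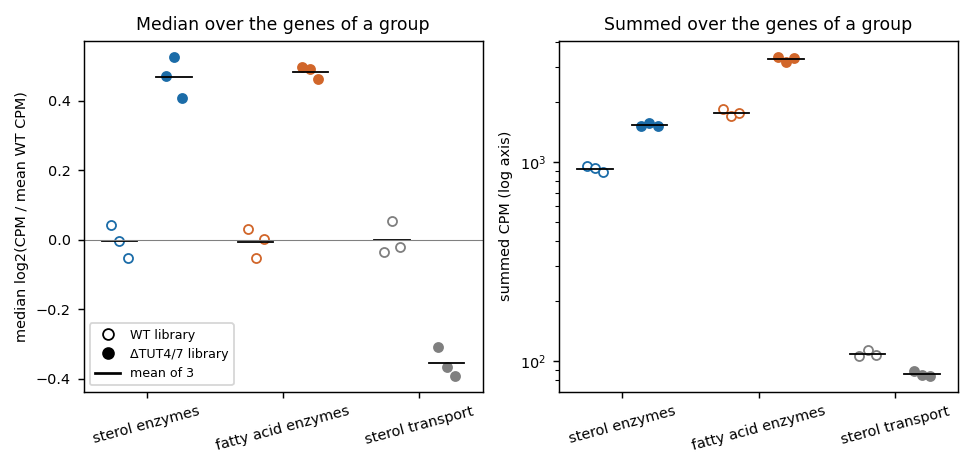
The left panel plots, for each library, the median over genes of log2 of the CPM over the WT mean, and the right panel the summed CPM on a log axis, for 18 sterol enzymes, 7 fatty acid enzymes and the 2 sterol transport genes. Open points are WT and filled points ΔTUT4/7, with bars at the mean of 3 libraries; both enzyme groups sit higher and the transport genes lower in ΔTUT4/7.

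The sterol branch was compared with the fatty acid branch library by library. Over the 18 sterol enzymes, the median log2 ratio to the WT mean was 0.47, 0.53 and 0.41 in the ΔTUT4/7 libraries. Over the 7 fatty acid enzymes it was 0.50, 0.49 and 0.46. The sterol median minus the fatty acid median was 0.01, 0.05 and -0.06 in WT and -0.03, 0.04 and -0.05 in ΔTUT4/7. By these medians the branches differed by no more in ΔTUT4/7 than within WT, where scaling to the WT mean keeps values near 0. Summed levels rose by a ratio of 1.66 for the sterol enzymes and 1.86 for the fatty acid enzymes. SCD, ACLY and FASN, at means of 1170, 849 and 828 CPM in ΔTUT4/7, made up most of the fatty acid sum of 3311 CPM. ACLY, which supplies both branches, was counted in the fatty acid branch alone. Whether the branches differ was not tested. Of the sterol enzymes 15 rose (83.3%) and 1 fell, and of the fatty acid enzymes 5 rose (71.4%) and 1 fell. Median log2 fold changes were 0.48 in both branches. With 7 genes, the fatty acid median was the value of 1 gene, ELOVL6, which lay between ACACA (0.21) and ACLY (0.76). With SREBF1 added to the fatty acid enzymes, the median of that branch was 0.35. With SREBF2, INSIG1, STARD4 and NPC1 added to the sterol enzymes, the middle values were 0.43 (ACAT2) and 0.47 (EBP). Within each branch the spread was wide, from -0.33 to 1.70 for the sterol enzymes and from -0.74 to 1.54 for the fatty acid genes.

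Levels of different genes were compared per kilobase of exon. SCD had the highest level in both groups, at 108 ± 4.20 CPM per kb in WT and 223 ± 4.16 CPM per kb in ΔTUT4/7. ACLY was next in both, at 96.4 ± 6.66 and 163 ± 4.07 CPM per kb. In WT the spreads of SQLE (33.9 ± 1.78 CPM per kb) and FASN (30.5 ± 2.92 CPM per kb) overlapped. In ΔTUT4/7 FASN, at 88.8 ± 6.26 CPM per kb, lay above SQLE at 57.3 ± 3.13 CPM per kb. INSIG1 moved from place 11 to place 5 of the 32, with 15.8 ± 0.416 and 52.5 ± 1.02 CPM per kb. HMGCS1 moved from place 19 to place 7, with 9.86 ± 0.189 and 32.1 ± 0.931 CPM per kb. NSDHL moved from place 23 to place 11. At the low end, MVK was lowest in WT with 1.35 ± 0.123 CPM per kb, next to FADS2 with 1.58 ± 0.115 CPM per kb, and their spreads overlapped. FADS2 was lowest in ΔTUT4/7, with 0.951 ± 0.155 CPM per kb. An exon length summed over all transcripts of a gene understates levels per kb for genes with many isoforms.

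**Figure D4:**
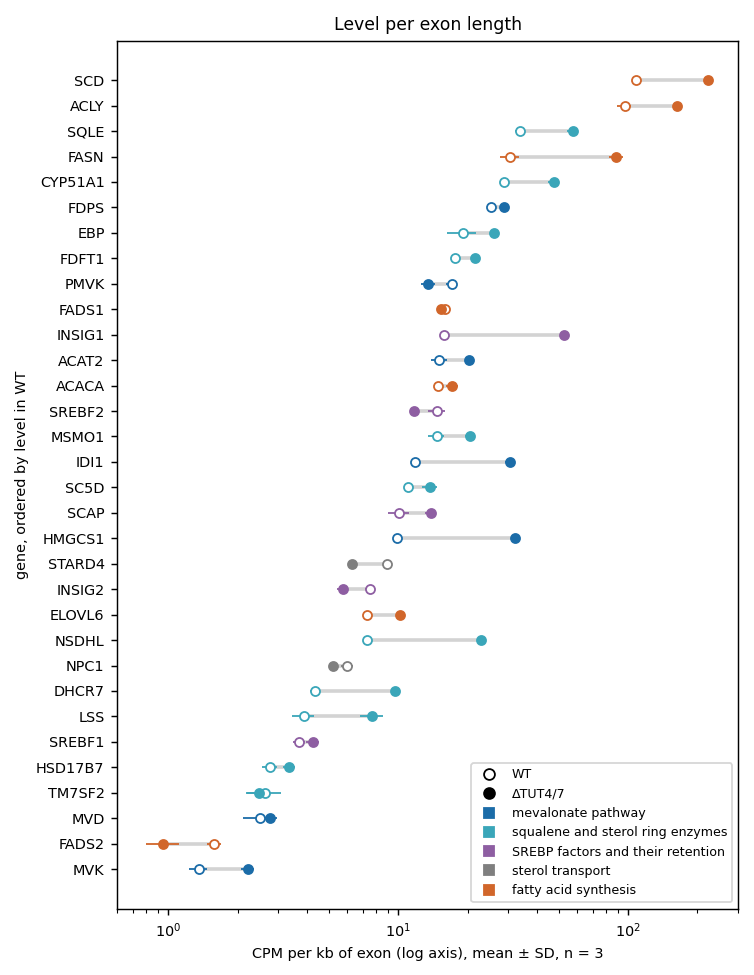
Mean level ± SD over 3 libraries, in CPM per kb of exon on a log axis, is plotted for WT (open) and ΔTUT4/7 (filled), with genes ordered by their WT level. SCD and ACLY are at the top in both groups, while INSIG1, HMGCS1 and NSDHL show the longest connecting bars in the middle of the order.

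HEK 293T cells carry an abnormal number of many chromosome regions, so each gene was set beside up to 20 nearest expressed genes (at most 10 on each side, mean count of 50 or more, members left out). IDI1 had 17 such neighbours, LSS 18 and each other gene 20. The median log2 fold change of the neighbours ran from -0.69 to 0.63. Of the 23 genes that rose, 21 lay above their neighbours' median, and 8 of the 23 had a neighbour median below 0. All 6 genes that fell lay below theirs. These counts follow in part from picking genes by their direction, and the shares over all called genes were not computed. Near ACAT2, 16 of 20 neighbours were called lower (median -0.69), near FDFT1 17 of 20 (median -0.64) and near ELOVL6 14 of 20 (median -0.63). FASN rose while the median of its neighbours was -0.39. Around NSDHL 13 of 20 neighbours were called higher (median 0.63), around IDI1 13 of 17 (median 0.62), around SCAP 14 of 20 (median 0.60) and around SCD 14 of 20 (median 0.45).

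Differences between a gene and its neighbours were 1.93 for FASN, 1.49 for INSIG1, 1.40 for HMGCS1, 1.03 for NSDHL, 0.76 for IDI1 and 0.60 for SCD on the log2 scale. SCAP and SREBF1, with differences of -0.14 and -0.02, lay below their neighbours although both were called higher. The part of chromosomal position in these results was not tested further.

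**Figure D5:**
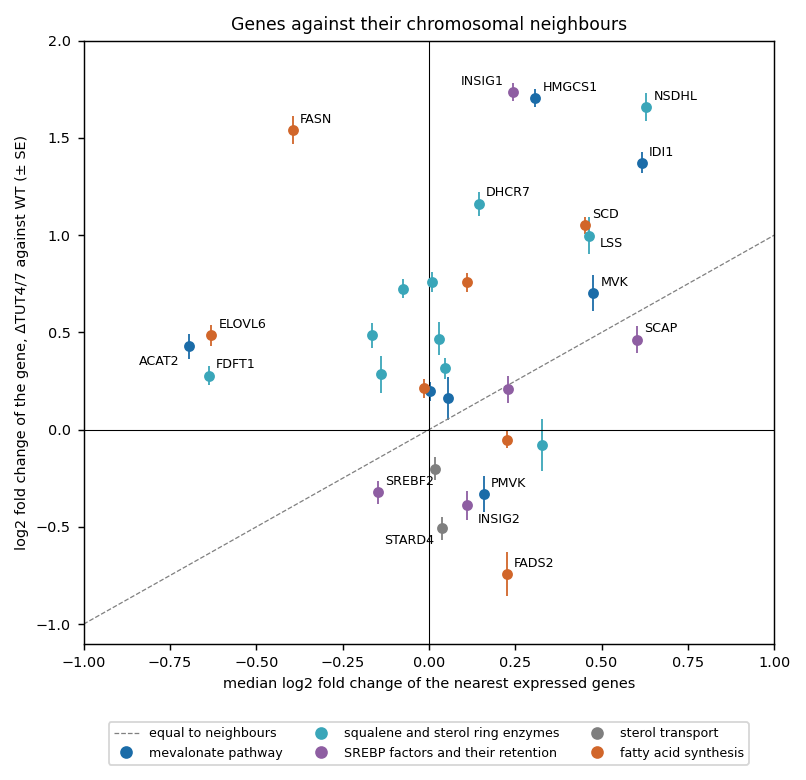
For each of the 32 genes, the log2 fold change ± SE is plotted against the median log2 fold change of its nearest expressed genes, and the dashed line marks equal values. FASN, INSIG1 and HMGCS1 lie far above the line, SCAP and SREBF1 slightly below it, and ACAT2, FDFT1 and ELOVL6 rose beside neighbours that were mostly lower.

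Overlapping genes in the annotation may bear on several values, and whether reads were shared between them was not tested. In all, 21 of the 32 genes overlap another gene of the table. AC114947.2, opposite HMGCS1, had a log2 fold change of 1.74 ± 0.14, close to that of HMGCS1. IDI2-AS1, opposite IDI1, had 1.16 ± 0.13, and STARD4-AS1, opposite STARD4, had -0.53 ± 0.10. MMAB, which lies opposite MVK, had 0.70 ± 0.07, equal to MVK at this precision. By contrast, RMC1 opposite NPC1 rose (0.51 ± 0.08) while NPC1 fell, and SOD2 opposite ACAT2 fell (-0.39 ± 0.04) while ACAT2 rose. ZNHIT2 opposite TM7SF2 rose (1.09 ± 0.16) while TM7SF2 was not called. C17orf78 opposite ACACA, with a mean count of 24, fell (-2.13 ± 0.36) while ACACA rose. TCP1, also opposite ACAT2, rose as ACAT2 did (0.29 ± 0.05). Its mean count was 10942.7, against 1137.5 for ACAT2.

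Other genes of these pathways were taken from fixed lists, whose called shares are read against the 57.7% called among all genes tested and the 73.7% among the more abundant ones. Among sterol and other isoprenoid enzymes outside the 32, 15 of 16 were tested, of which 8 rose, 1 fell and 6 were not called (60.0% called, median log2 fold change 0.22). GGPS1, which makes the geranylgeranyl diphosphate used for protein prenylation, was the gene that fell (-0.36 ± 0.06).

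Of 8 genes of SREBP processing and sterol-regulated degradation, 3 rose, 3 fell and 2 were not called (75.0% called, close to the background, median -0.09). RNF145, an endoplasmic reticulum ubiquitin ligase, had a log2 fold change of 0.88 ± 0.06. FBXW7, which targets nuclear SREBPs for degradation, had -0.72 ± 0.05. The proteases that release SREBPs at the Golgi, MBTPS1 and MBTPS2, were singled out after their values were seen, and had -0.59 ± 0.04 and -0.56 ± 0.06.

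Of 18 genes of sterol storage, transport and efflux, 17 were tested, of which 5 rose and 7 fell (70.6% called, between the backgrounds, median -0.07). ABCA1, the cholesterol efflux pump, fell from 37.7 ± 0.660 to 2.88 ± 0.253 CPM, 13.1-fold (log2 fold change -3.73 ± 0.10). ABCG1, another efflux pump, also singled out after its values were seen, went from 2.72 ± 0.465 to 0.312 ± 0.0951 CPM. SCARB1, the receptor for high-density lipoprotein, rose from 37.1 ± 2.66 to 101 ± 2.22 CPM (log2 fold change 1.44 ± 0.06). Among the other lipoprotein receptors of the list, singled out likewise, VLDLR had a log2 fold change of -1.88 ± 0.08 and LRP8 one of 1.16 ± 0.05, so the receptors did not move in a single direction.

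Fatty acid genes outside the 32 were tested for 24 of 25, of which 15 rose, 3 fell and 6 were not called (75.0% called, close to the background, with 62.5% higher, median 0.26). ELOVL2, an elongase of polyunsaturated chains, had a log2 fold change of 1.12 ± 0.06. SCD5, a second stearoyl-CoA desaturase, fell from 40.5 ± 2.34 to 14.6 ± 0.592 CPM (log2 fold change -1.47 ± 0.07), opposite to SCD. Of 19 fatty acid oxidation genes 7 rose, 5 fell and 7 were not called (63.2% called, between the backgrounds, median 0.03). ECHS1, a hydratase of the mitochondrial cycle, rose (1.01 ± 0.06), and PPARA, a nuclear receptor that drives oxidation genes, fell (-1.13 ± 0.07).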

How the data were processed

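Estimated counts per gene came from 3 WT and 3 ΔTUT4/7 HEK 293T libraries. The authors aligned reads to hg38 with STAR 2.7.3a and, in Partek Flow 10.0.22, deposited estimated counts from an expectation-maximisation model, so 45.2% to 50.0% of a library's values are not whole (tolerance 1e-09). The authors' own comparison table (p-values and fold changes) was not used.

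Estimated counts were rounded, filtered (largest count above 12), scaled by TMM and tested with edgeR 4.0.16 in R 4.3.3 (glmQLFit robust, glmQLFTest), with Benjamini-Hochberg adjustment over 23952 genes. The SE of a log2 fold change was derived from this test, as its absolute value over the square root of the test's F statistic. CPM are per TMM-scaled library, as mean ± SD. Exon lengths for CPM per kb came from GENCODE. Paralog ratios used 0.5 added counts. Alternatives used limma 3.58.1, DESeq2 1.42.0, other scalings, filters, a replicate block, a GC and length offset, and each library left out. The fit was tested on simulated data in which few genes changed, as many up as down. That setting could not check the scaling where many genes change, as here.

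Named genes were all 32 members, TUT4 and TUT7, and the largest called rise and fall of each other list among genes whose mean count reached 100. Members and lists were chosen with earlier results of these data known. Library totals of 18757228 to 33148937 limit the precision of low counts. Some genes of these pathways are not reported here.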

Additional observations from a re-analysis of the deposited data

How the results depend on the processing

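Across 15 alternatives with a test, 458 of 480 values of the 32 genes kept their direction and side of the threshold, and 25 genes did so in all 15. With library size alone the median of all genes shifted by -0.11, and fatty acid enzymes called lower numbered 2. That count was also 2 in limma on log2(CPM + 1) and with a mean count of 50 or more, through FADS1. The sterol enzyme median was 0.36, 0.35 and 0.41 in these fits, 0.59 with neighbours subtracted and 0.40 to 0.56 with a library left out (lowest without WT replicate 3, highest without WT replicate 1). The fatty acid median was 0.37, 0.36 and 0.42 in the same fits. With the GC and length offset the fatty acid median was 0.60 and the sterol enzyme median 0.50. The fatty acid median was 0.60 with neighbours subtracted and 0.35 with SREBF1 added. Signs turned for FADS1 with the offset (0.0481), for TM7SF2 without WT replicate 1 (0.0314, range -0.22 to 0.0314), and with neighbours subtracted for SREBF1 (-0.0222) and SCAP (-0.14). The cause was not tested. The replicate numbers did not pair the libraries (correlations of deviations 0.05, -0.01 and -0.02), and with the replicate block 23 genes were called higher and 6 lower. Leaving out a library gave 21 to 23 higher and 6 lower. With library size alone and in limma on log2(CPM + 1) it was 19 higher and 7 lower, with 13 instead of 15 sterol enzymes higher.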
